A study of Rattus norvegicus with 12 samples.

Results

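The transcripts described here encode the respiratory chain of rat cells, which is built from subunits of 2 genomes. Members were the rows whose symbol begins with Mt-, Nduf, Uqcr or Atp5, with Cox4 to Cox8, or is Sdha, Sdhb, Sdhc or Sdhd. This rule found 107 rows and 104 symbols of the 18344 rows in the table, of which 91 are nuclear genes and 13 are mitochondrially encoded. Where a symbol had more than 1 row (Cox6b1, Uqcrb and Ndufv3), the row with the highest mean was used. The rule used no measured difference between groups. It takes in 8 assembly factors of complex I (the Ndufaf genes) and the inhibitor Atp5if1, which are not subunits, and it passes over Cyc1, a complex III subunit described with the electron carriers.

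The 12 libraries came from 4 groups of 3, and all 4 groups had undergone oxygen-glucose deprivation and reperfusion (OGD/R), a culture model of ischaemia. The groups NC and CIRBP are named for a control treatment and for CIRBP, the cold-inducible RNA-binding protein, and si-NC and si-CIRBP for a control and a silencing treatment aimed at it. NC is the control of CIRBP and si-NC that of si-CIRBP, and the libraries of a group are called biological replicates. The sources used here do not give what the treatments consisted of, the time after OGD/R or whether the groups share a culture, and p-values then measure only the spread between these libraries. Cells that had not undergone OGD/R are not analysed here, so every level below is a level after OGD/R.

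The source label gives H9C2, a line from embryonic rat heart, and the cell line label gives rat astrocytes. In the table, the names of the NC and CIRBP columns begin with ad, whose meaning no label gives. Defining markers of each were in part near 0: in NC, 10 of the 14 skeletal and cardiac muscle markers in the table had a mean under 1 FPKM, Actc1 and Myog among them, and so did 3 of 6 astrocyte markers, Slc1a3 and Aldh1l1 among them, while Gfap was at 4.24 to 4.74, Aldoc at 20.8 to 24.0 and S100b at 155 to 165 FPKM. The summed level of the 6 was 180 to 194 FPKM in NC and 267 to 283 in CIRBP. Of the 4 tested, Aldoc and Gfap were called higher in CIRBP (adjusted p under 0.05 with limma). For 6 neuron and oligodendrocyte markers it was 226 to 227 in NC and 187 to 191 in CIRBP. Of the 5 tested, 3 were called higher and 1 lower in CIRBP, against 19.7% and 34.2% of all genes. Their median log2 fold change was 0.39, so the fall of the sum was not shared by most of them. For 7 fibroblast and mesenchymal markers the summed level was 4362 to 4483 in NC and 4687 to 4885 in CIRBP. In si-NC and si-CIRBP the summed levels of the astrocyte markers were 132 to 184 and 182 to 196 FPKM. Those of the neuron and oligodendrocyte markers were 165 to 216 and 143 to 147. Those of the fibroblast and mesenchymal markers were 3803 to 4513 and 4359 to 5441. The part of these levels in the results was not tested. Expression is given as FPKM, a count of fragments corrected for the length of the transcript and the size of the library, so that levels can be compared between genes. Summed FPKM were 457775 to 502889 per library. Absolute depth is unknown, and the relative depth of the other libraries was 0.843 to 1.03 times that of NC library 1. Cirbp itself was at 19.0, 19.8 and 20.1 FPKM in NC and at 34.3, 36.5 and 36.5 in CIRBP (adjusted p = 2.47e-06 with limma). It was at 29.0, 24.2 and 26.96 FPKM in si-NC and at 26.5, 28.6 and 27.7 in the libraries labelled si-CIRBP (adjusted p = 0.609). The part of silencing in the directions given below for that arm was not tested. Between the controls, Cirbp was called higher in si-NC than in NC (log2 fold change 0.42, adjusted p = 0.00134 with limma).

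The respiratory chain passes electrons from NADH through complex I and from succinate through complex II to ubiquinone, then through complex III and cytochrome c to complex IV, where oxygen is reduced. Complexes I, III and IV pump protons across the inner mitochondrial membrane, and the ATP synthase, complex V, uses the gradient to make ATP. The mitochondrial genome encodes a few membrane-embedded subunits of complexes I, III, IV and V, while all of complex II and the remaining subunits come from nuclear genes. In ischaemia the lack of oxygen halts the chain, and reoxygenation makes it a known source of reactive oxygen species.

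Transcripts of the 13 mitochondrial genes made up a larger share of all expression in CIRBP than in NC, while the share of the nuclear members stayed close. In NC the mitochondrial share was 6.06%, 5.89% and 6.05% of the summed FPKM. In CIRBP it was 7.82%, 8.29% and 8.09%, and these groups did not overlap (exact permutation test, two-sided p = 0.1, the smallest that 3 libraries against 3 can give). In si-NC it was 6.09%, 9.56% and 6.39%, and in the libraries labelled si-CIRBP 5.44%, 7.91% and 8.06%, so these groups overlapped, with 1 library of each standing apart from its fellows. The nuclear members together held 2.15% ± 0.0468 (SD, n = 3) in NC, 2.13% ± 0.0313 in CIRBP, 2.00% ± 0.069 in si-NC and 2.197% ± 0.0306 in si-CIRBP. The nuclear share was 1.92% to 2.05% in the 3 si-NC libraries and 2.16% to 2.22% in the 3 si-CIRBP libraries, without overlap (exact permutation test, two-sided p = 0.1). In bulk RNA, fewer cells of a type and less RNA per cell cannot be told apart.

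**Figure D1:**
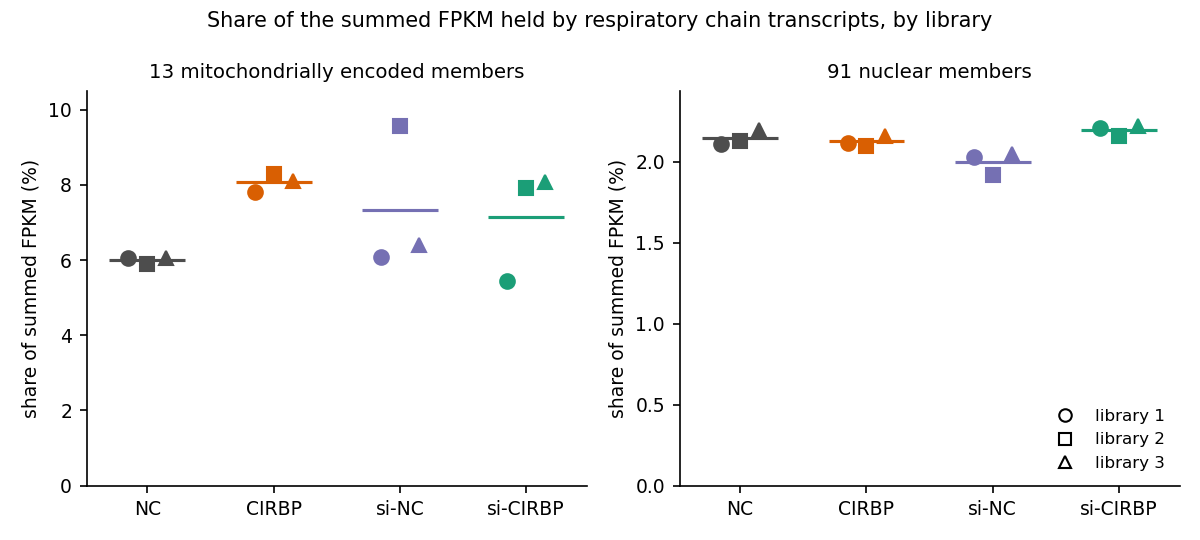
Share of the summed FPKM (%, y axis from 0) held by the 13 mitochondrially encoded members (left) and the 91 nuclear members (right) in each library, with bars at the mean of each group of 3. The mitochondrial share separates CIRBP from NC, while si-NC library 2 at 9.56% and si-CIRBP library 1 at 5.44% stand apart from their groups; the nuclear shares all lie between 1.92% and 2.22%.

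Of the 13 mitochondrially encoded transcripts, 5 were called higher in CIRBP than in NC and none lower, where called means an adjusted p under 0.05 with limma. Over all 14257 genes tested, 19.7% were called higher and 34.2% lower. The median log2 fold change was 0.45 over the 13 transcripts and -0.08 over all genes tested. In 12 of 13 every CIRBP library was above every NC library, which held for 29.7% of all genes tested, and the exception was Mt-atp8. A fit of NC and CIRBP alone called 12 higher, and the share of all genes called in that fit is not given here. The count was 2 without NC library 1 and 1 without any other library of NC or CIRBP. It was 3 with mitochondrial rows left out of the library sum, 2 with no filter on low values and 8 after the libraries were scaled to one median. After that scaling, 28.7% of all genes were called higher. That scaling raised the median change over all genes from -0.08 to 0.03 in CIRBP against NC and from -0.04 to 0.06 in si-CIRBP against si-NC. Counts below are from the fit without scaling unless a scaling is named.

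Among the 3 catalytic subunits of complex IV that the mitochondrial genome encodes, all were called higher in CIRBP. Mt-co2, which holds the copper site that accepts electrons from cytochrome c, was at 3944, 3758 and 4028 FPKM in NC and at 5907, 6191 and 6193 in CIRBP (log2 fold change 0.64 with an SE of 0.19, adjusted p = 0.0144). It was the only one of the 5 whose call held without each library in turn (adjusted p up to 0.0476), while the highest adjusted p of the others was 0.0695 for Mt-nd1 to 0.11 for Mt-co1. Mt-co1, which carries the haem and copper centre where oxygen is reduced, went from 4712, 4599 and 4899 FPKM to 6416, 6529 and 6306 (log2 fold change 0.44, adjusted p = 0.0425). Mt-co3 went from 5132, 4758 and 5010 FPKM to 6782, 6965 and 6928 (log2 fold change 0.47, adjusted p = 0.0232). The 3 CIRBP values of each gene lay above its 3 NC values and close to each other.

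Of the mitochondrially encoded subunits of complex I, Mt-nd1 alone was called. Mt-nd1, at the base of the membrane arm near the site where ubiquinone is reduced, stood at 1768, 1726 and 1790 FPKM in NC and at 2976, 3269 and 3211 in CIRBP. Its log2 fold change of 0.84 (SE 0.28, adjusted p = 0.0265) was the largest of the 13. The other 6, Mt-nd2, Mt-nd3, Mt-nd4, Mt-nd4l, Mt-nd5 and Mt-nd6, had log2 fold changes of 0.27 to 0.49 with adjusted p-values from 0.0869 to 0.472. Mt-cyb, the cytochrome b of complex III, was at 2861, 2823 and 2890 FPKM in NC and at 3479, 3674 and 3584 in CIRBP (log2 fold change 0.32, adjusted p = 0.145). Of the complex V subunits, Mt-atp6, part of the proton channel, went from 3888, 3901 and 3996 FPKM to 5480, 5889 and 5919 (log2 fold change 0.55, adjusted p = 0.0423). Mt-atp8 was at 432, 539 and 589 FPKM in NC and at 527, 784 and 1056 in CIRBP, and it was not called (adjusted p = 0.215).

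In the libraries labelled si-CIRBP against si-NC, none of the 13 was called in either direction by limma, against 9.08% of all genes called higher and 20.5% lower. All 13 overlapped between these groups, and 11.7% of all genes tested had every si-CIRBP library above every si-NC library. In si-NC library 2 the 13 transcripts were 1.45 to 2.54 times the mean of the other 2 si-NC libraries (median 1.57), while the 82 nuclear members measured there had a median ratio of 0.943. In si-CIRBP library 1 they were 0.317 to 0.850 times the mean of the other 2 si-CIRBP libraries (median 0.631), against a median of 1.02 over the nuclear members. The median coefficient of variation of the 13 was 27.8% in si-NC and 24.5% in si-CIRBP, against 3.20% in NC and 4.26% in CIRBP. Over all genes with a mean of at least 1 FPKM in the group it was 10.2% in si-NC, 11.6% in si-CIRBP, 4.04% in NC and 4.26% in CIRBP. Without si-NC library 2, 1 of the 13 was called higher, and without si-CIRBP library 1 none was.

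The low values of si-CIRBP library 1 were uneven among the mitochondrial genes. Its ratios were lowest for 5 of the 7 complex I subunits, at 0.317 for Mt-nd3, 0.362 for Mt-nd4, 0.412 for Mt-nd4l, 0.423 for Mt-nd2 and 0.446 for Mt-nd1. They were 0.594 for Mt-nd5 and 0.697 for Mt-nd6, the other complex I subunits, 0.820 for Mt-co1, 0.782 for Mt-co2 and 0.850 for Mt-co3. Mt-nd3, for example, was at 325 FPKM in that library and at 992 and 1061 in its fellows, and Mt-co3 at 5720 against 6553 and 6902. The summed FPKM of the 7 Mt-nd genes over that of the 3 Mt-co genes was 0.275 in that library and 0.420 to 0.505 in the other 11. In si-NC library 2, where all 13 were high, this ratio was 0.435. The excess there was shared by all 13, and the deficit in si-CIRBP library 1 was deepest in those 5 complex I genes.

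**Figure D2:**
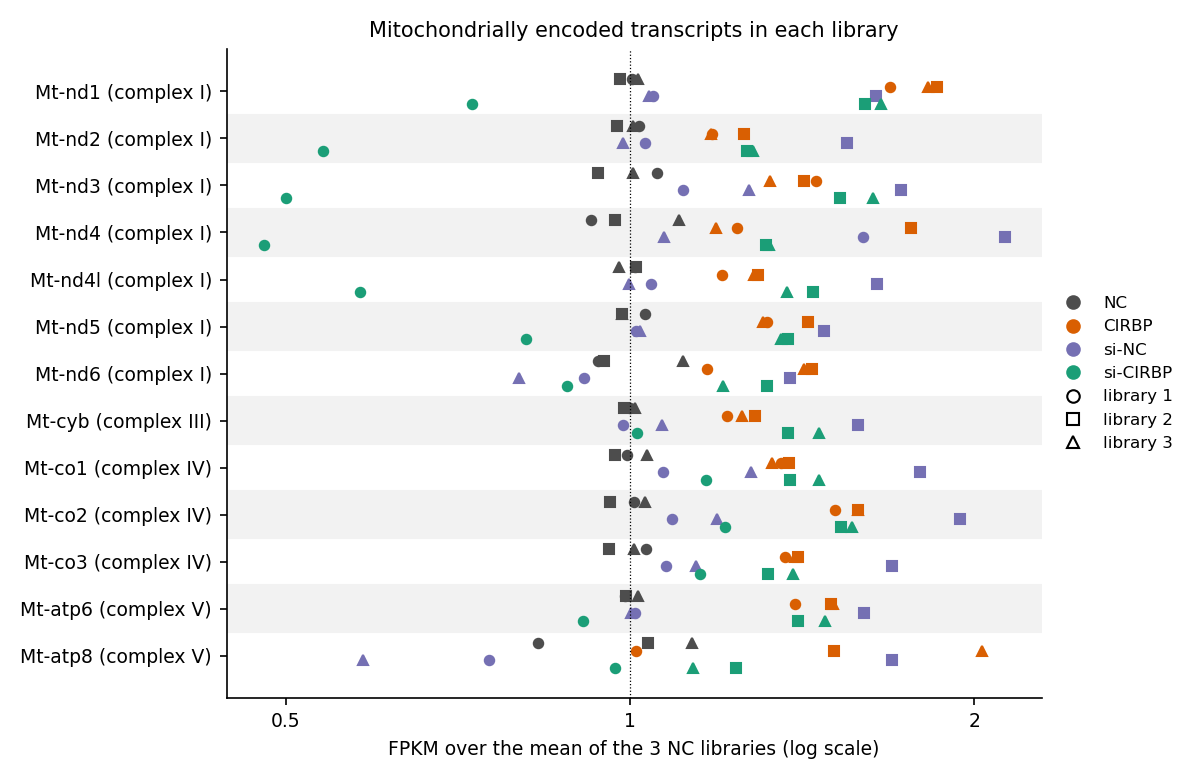
FPKM of each of the 13 mitochondrially encoded transcripts in each library over the mean of the 3 NC libraries (log scale), with colours for groups and symbols for libraries. CIRBP libraries lie to the right of NC for 12 of 13 transcripts, si-NC library 2 (square) lies to the right of its fellows, and si-CIRBP library 1 (circle) lies far to the left for 5 of the 7 complex I genes and less so for the complex IV genes.

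Levels differed between the mitochondrial transcripts in all groups. In NC they ranged from 30.6 FPKM to 4967 FPKM (group means, lowest Mt-nd4, highest Mt-co3), with a median of 1761, against a median of 77.6 FPKM over the 91 nuclear members and a highest nuclear level of 776 FPKM for Atp5f1b. Mt-nd4 was at 14.6 to 65.04 FPKM over all libraries, and Mt-nd4l, which overlaps it on a shared transcript, at 521 to 1476. Mitochondrial genes have nuclear copies, and the sources used here do not say how reads shared with them were counted, so single values of this kind are uncertain. The libraries were poly-A selected, which can catch those mitochondrial transcripts that carry a short tail.

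Nuclear members were called in both directions in CIRBP against NC, with 24 higher, 19 lower and 44 not called among the 87 tested. The other 4, Cox4i2, Cox7a1, Ndufa4l2 and Ndufs6, did not reach 1 FPKM in 3 libraries. The share called higher compares with 19.7% of all genes and the share called lower with 34.2%. The median log2 fold change of the nuclear members was 0.05 and of all genes tested -0.08. Scaling to one median moved the split to 43 higher and 9 lower, where 28.7% of all genes were called higher and 26.4% lower, and leaving mitochondrial rows out of the library sum moved it to 21 and 24. Without NC library 3 or CIRBP library 1 the count called lower was 12. RefSeq lists pseudogenes under the names of 44 of the 91 nuclear members, and single values of these can hold reads shared with a copy.

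In the libraries labelled si-CIRBP against si-NC, 37 of 87 nuclear members were called higher, 1 lower and 49 neither, where 9.08% of all genes were called higher and 20.5% lower. The median log2 fold change was 0.19 over the nuclear members and -0.04 over all genes. A fit of these 6 libraries alone called 10 higher and none lower, and one with a variance factor for each group called 8 higher. The shares of all genes called in these fits are not given here. Without si-NC library 2, 41 were called higher and 6 lower. Scaling to one median gave 54 higher and 1 lower, against 17% and 13.3% of all genes. Of the 24 called higher in CIRBP, 16 were also called higher in si-CIRBP, which is 66.7% of the first list and 43.2% of the second. Over all genes tested, the calls shared in this direction were 32.9% of the first list and 71.6% of the second.

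**Figure D3:**
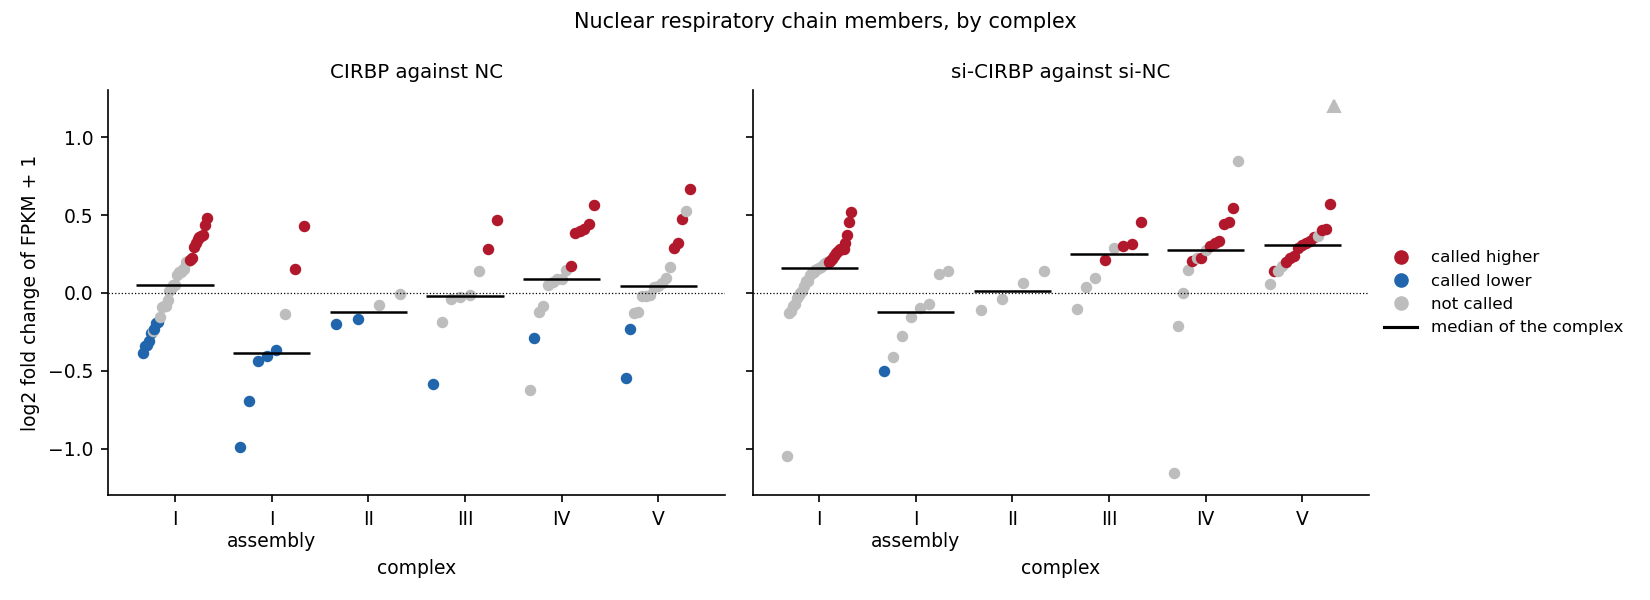
Log2 fold changes of FPKM + 1 of the 87 tested nuclear members by complex, in CIRBP against NC (left) and si-CIRBP against si-NC (right), in rank order within each complex. Red and blue points are called higher and lower at an adjusted p under 0.05 (limma), black bars are medians, and the triangle at the upper edge is Atp5pb at 1.77. Complex I assembly factors lie lowest in both comparisons (medians -0.38 and -0.13), and in si-CIRBP the medians of complexes III, IV and V are 0.25, 0.28 and 0.30.

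Of 35 tested nuclear subunits of complex I, 10 were called higher in CIRBP, 8 lower and 17 neither, where 19.7% of all genes were called higher and 34.2% lower. Scaling to one median gave 19 higher and 4 lower, against 28.7% and 26.4% of all genes. Among the 7 nuclear core subunits, which carry the flavin and the iron-sulphur clusters, 3 fell and 2 rose. After scaling to one median 2 of the 7 were lower and 3 higher, and by median ratios 3 and 3. Ndufs1, the largest core subunit, was at 74.7, 73.7 and 74.9 FPKM in NC and at 56.7, 56.8 and 56.8 in CIRBP (log2 fold change -0.38 with an SE of 0.07, adjusted p = 0.00123). Ndufs3 fell by 0.26 on the log2 scale (adjusted p = 0.0011), and Ndufs8 and Ndufv1 rose by 0.35 and 0.21 (adjusted p = 0.00341 and 0.00691). Core subunits of the same arm of the enzyme were thus called in both directions.

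Over all genes tested, 19.7% rose and 34.2% fell in CIRBP. Among the 28 tested accessory subunits of complex I, 8 rose, 5 fell and 15 were not called. The largest rises were those of Ndufa11 and Ndufb10, both of the membrane arm. Ndufa11 went from 87.7, 93.2 and 91.6 FPKM to 125, 124 and 133 (log2 fold change 0.48, adjusted p = 0.000865). Ndufb10 went from 45.4, 40.5 and 45.2 to 61.2, 59.2 and 57.9 (log2 fold change 0.44, adjusted p = 0.0134), and its call was lost without NC library 2 (0.0534). The largest fall was that of Ndufa9, which helps to join the hydrophilic arm to the membrane arm, from 76.8, 77.6 and 78.3 FPKM to 62.3, 57.7 and 63.7 (log2 fold change -0.34, adjusted p = 0.0044). Groups without overlap were a condition for naming these 3 genes. The other called members rose by 0.22 to 0.37 (Ndufa12, Ndufb3, Ndufb4, Ndufb9, Ndufb11 and Ndufs5) or had log2 fold changes of -0.33 to -0.18 (Ndufab1, Ndufa7, Ndufb8 and Ndufc1).

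In si-CIRBP against si-NC, 13 of the 35 complex I subunits were called higher and none lower, where 9.08% of all genes were called higher and 20.5% lower. Of the 13, 12 were accessory subunits and 1, Ndufs8, was a core subunit. Ndufs5, an accessory subunit of the membrane arm, was at 111, 97.2 and 100 FPKM in si-NC and at 154, 131 and 140 in si-CIRBP (log2 fold change 0.45, SE 0.07, adjusted p = 0.00138). Ndufb2 went from 96.3, 65.01 and 91.2 FPKM to 117, 118 and 123 (log2 fold change 0.52, adjusted p = 0.0127), with si-NC library 2 below its fellows, and a fit of these 6 libraries did not call it. Ndufs5 rose in both arms, as did Ndufa12, Ndufb3, Ndufb11 and Ndufs8. Ndufs1 and Ndufs3, which fell in CIRBP, were not called in si-CIRBP, with log2 fold changes of -0.08 and 0.01.

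Most assembly factors of complex I fell in CIRBP. Of the 8 Ndufaf genes, 5 fell, 2 rose and 1 was not called, where 34.2% of all genes fell and 19.7% rose. The median log2 fold change of the 8 was -0.38. After scaling to one median 3 were lower and 2 higher, against 26.4% and 28.7% of all genes. Ndufaf4, an early-acting assembly factor, was at 17.9, 18.3 and 18.3 FPKM in NC and at 8.70, 8.81 and 8.41 in CIRBP. Its log2 fold change of -0.99 (SE 0.09, adjusted p = 8.34e-06) was the largest fall among all called members. It was at 16.7, 12.8 and 14.1 FPKM in si-NC and at 8.74, 10.5 and 10.5 in the libraries labelled si-CIRBP (a log2 fold change of -0.50 with an adjusted p of 0.00265), though a fit of these 6 libraries alone did not call it. It was the only nuclear member called lower in both arms and also lower in si-NC than in NC (log2 fold change -0.31, adjusted p = 0.026), of which the last was not called without any 1 NC library or without si-NC library 2 or 3 (adjusted p up to 0.089). RefSeq lists 5 pseudogenes under its name.

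Ndufaf1, an assembly factor of the membrane arm, went from 7.61, 8.60 and 8.80 FPKM in NC to 4.62, 4.54 and 5.14 in CIRBP (log2 fold change -0.69, adjusted p = 0.00288). It was at 8.35, 7.35 and 8.05 FPKM in si-NC and at 3.95, 6.84 and 6.72 in si-CIRBP, where it was not called (log2 fold change -0.41, adjusted p = 0.0662). Ndufaf5, Ndufaf6 and Ndufaf8 had log2 fold changes of -0.40, -0.44 and -0.36 in CIRBP. Ndufaf3 moved the other way, from 15.5, 15.9 and 16.5 FPKM to 22.5, 21.2 and 21.9 (log2 fold change 0.43, adjusted p = 0.000636), although it acts early in assembly like Ndufaf4. In si-CIRBP it had a log2 fold change of -0.16 (adjusted p = 0.144), and the difference between the arms, 0.58, was called (adjusted p = 0.00478). Ndufaf7 rose by 0.15 in CIRBP (adjusted p = 0.0401), a call lost without any 1 of 6 libraries.

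Complex II, succinate dehydrogenase, takes part in the tricarboxylic acid cycle as well and has all its 4 subunits from nuclear genes. In CIRBP, 2 of the 4 fell and none rose, where 34.2% of all genes fell and 19.7% rose. Sdhb, the iron-sulphur subunit, was at 131, 131 and 140 FPKM in NC and at 118, 119 and 119 in CIRBP (log2 fold change -0.17 with an SE of 0.04, adjusted p = 0.00736). Sdhc, a membrane anchor, was at 128, 130 and 136 FPKM and at 113, 112 and 118 (log2 fold change -0.20, adjusted p = 0.0202). Neither was called after scaling to one median or by median ratios, and Sdhc was not called once NC library 3, CIRBP library 1 or CIRBP library 2 was left out (adjusted p up to 0.0739). Sdha, the flavin subunit, was at 84.5, 84.3 and 83.0 FPKM in NC and at 85.0, 82.9 and 82.3 in CIRBP (log2 fold change -0.01, adjusted p = 0.931), and scaling to one median turned this to 0.14 with an adjusted p of 0.0453. Sdhd was at 89.8, 92.2 and 95.3 FPKM and at 85.9, 85.9 and 90.4 (log2 fold change -0.08, adjusted p = 0.232). None of the 4 was called in si-CIRBP (log2 fold changes -0.11 to 0.14). All 4 were called lower in si-NC than in NC (log2 fold changes -0.22 to -0.16), as were 21.9% of all genes. Of the 4, the call of Sdhb alone held without each library in turn. Those of the others reached adjusted p-values of 0.0719 to 0.124 with limma. This is a comparison of controls in which the treatments and any difference between cultures cannot be told apart.

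Complex III passes electrons from ubiquinol to cytochrome c. In CIRBP, 2 of its 8 nuclear members rose, 1 fell and 5 were not called, where 19.7% of all genes rose and 34.2% fell. Scaling to one median gave 4 higher and 1 lower of the 8, against 28.7% and 26.4% of all genes. Uqcrq, a small subunit beside cytochrome b, went from 43.8, 42.3 and 46.8 FPKM to 61.5, 59.6 and 63.5 (log2 fold change 0.47, SE 0.10, adjusted p = 0.00238). Uqcrfs1, the Rieske iron-sulphur protein, went from 78.6, 76.4 and 77.3 to 94.9, 92.9 and 95.4 (log2 fold change 0.28, adjusted p = 0.000705). Uqcrh, the hinge protein that helps cytochrome c1 to dock cytochrome c, moved the other way, from 123, 119 and 129 FPKM to 79.1, 73.7 and 95.2 (log2 fold change -0.58, SE 0.11, adjusted p = 0.000927). Groups without overlap were a condition for naming these 3. Their calls held without each library in turn.

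In si-CIRBP against si-NC, 4 of the 8 complex III members rose and none fell, where 9.08% of all genes rose and 20.5% fell. Scaling to one median gave 6 higher and none lower of the 8, against 17% and 13.3% of all genes. Uqcr10 was at 46.0, 49.98 and 51.7 FPKM in si-NC and at 75.3, 65.6 and 62.9 in si-CIRBP (log2 fold change 0.45, adjusted p = 0.00632), and Uqcr11 went from 104, 126 and 123 to 155, 138 and 146 (log2 fold change 0.32, adjusted p = 0.00847). The call of Uqcr11 was not made in a fit of that arm alone, and that of Uqcr10 was not made with a variance factor for each group. Uqcrfs1 and Uqcrq rose by 0.21 and 0.30 (adjusted p = 0.0105 and 0.0429). Uqcrh was at 126, 130 and 116 FPKM in si-NC and at 130, 155 and 170 in si-CIRBP, which did not pass (log2 fold change 0.29, adjusted p = 0.0696). The difference of its changes between the arms, -0.87 (SE 0.15, adjusted p = 0.00418), was the largest among the members called for that difference. The core proteins Uqcrc1 and Uqcrc2 were not called in either arm, with log2 fold changes of -0.04 to 0.09.

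Complex IV held 15 tested nuclear members, here with Ndufa4, which carries a complex I name but belongs to cytochrome c oxidase. In CIRBP 6 rose, 1 fell and 8 were not called, where 19.7% of all genes rose and 34.2% fell. In si-CIRBP 8 rose, none fell and 7 were not called, where 9.08% of all genes rose and 20.5% fell. Scaling to one median gave 8 higher and none lower in CIRBP and 9 and none in si-CIRBP. That scaling called 28.7% of all genes higher and 26.4% lower in CIRBP and 17% and 13.3% in si-CIRBP. Cox4i1, the common form of the regulatory subunit that binds ATP, went from 291, 295 and 304 FPKM to 396, 388 and 402 (log2 fold change 0.41, adjusted p = 0.000724) and from 298, 330 and 352 in si-NC to 430, 364 and 416 in si-CIRBP (0.30, adjusted p = 0.0114). Cox7c went from 141, 153 and 157 FPKM to 197, 195 and 222 (log2 fold change 0.44, adjusted p = 0.00233) and from 154, 130 and 167 to 237, 211 and 209 (0.55, adjusted p = 0.00185). The groups did not overlap for Cox4i1 in either arm, and for Cox7c this was a condition of naming. Over all genes tested, 29.7% had every CIRBP library above every NC library, and 11.7% every si-CIRBP library above every si-NC library.

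Cox8a and Ndufa4 also had groups without overlap in both arms. They rose by 0.38 and 0.40 in CIRBP (adjusted p = 0.00288 and 0.00187) and by 0.34 and 0.32 in si-CIRBP (adjusted p = 0.0134 for each). The si-CIRBP calls of Cox4i1, Cox8a and Ndufa4 were not made in a fit of that arm alone, and that of Cox7c was. Cox7a2l, which is known for joining complexes III and IV into supercomplexes, went from 63.2, 64.97 and 68.1 FPKM to 96.0, 98.9 and 96.2 (log2 fold change 0.56, SE 0.15, adjusted p = 0.00923). It was at 59.0, 102 and 74.1 FPKM in si-NC and at 104, 88.2 and 87.4 in si-CIRBP, where it was not called (adjusted p = 0.203). Cox5b fell from 431, 428 and 467 FPKM to 323, 398 and 367 (log2 fold change -0.29, adjusted p = 0.0128), a call lost after scaling to one median or by median ratios and without NC library 3 or CIRBP library 1 (adjusted p up to 0.0568). Cox6b1, which bridges the monomers of the enzyme, was at 169, 168 and 181 FPKM in NC and at 187, 187 and 209 in CIRBP (log2 fold change 0.17, adjusted p = 0.0421), and at 183, 202 and 177 in si-NC and 219, 216 and 222 in si-CIRBP (0.23, adjusted p = 0.0211). Both calls were lost when single libraries were left out (adjusted p up to 0.17 and 0.081). Cox6c went from 213, 220 and 254 FPKM in si-NC to 321, 301 and 319 in si-CIRBP (log2 fold change 0.46, adjusted p = 0.00163).

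Several complex IV subunits exist as isoforms of different tissues. Cox6a1, the form of most tissues, stood at 478 to 552 FPKM over all libraries and was not called in any comparison. Its heart and skeletal muscle form Cox6a2 was at 0.439, 0.672 and 0.869 FPKM in NC, at 0.142 and 0.0753 in CIRBP libraries 1 and 2 and listed at 0 in library 3. It was at 2.58, 36.6 and 13.03 FPKM in si-NC and at 1.96, 6.20 and 7.01 in si-CIRBP. Between the control groups it was called higher in si-NC (log2 fold change 2.90, SE 0.68, adjusted p = 0.00883), and within the arms it was not called. Muscle marker levels also differed between the controls, though not in the same order as Cox6a2 over all groups. Their summed level over 14 genes was 12.4 to 14.0 FPKM in NC, 9.11 to 10.95 in CIRBP, 20.9 to 164 in si-NC and 39.5 to 252 in si-CIRBP. Smooth muscle markers had a summed level over 7 genes of 78.9 to 80.1 FPKM in NC, 94.0 to 96.9 in CIRBP, 185 to 1453 in si-NC and 764 to 967 in si-CIRBP. Of the first list 6 of 14 had a mean under 1 FPKM in si-NC, Actc1 and Ckm among them, and the part of muscle gene expression in the level of Cox6a2 was not tested.

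Other forms of muscle or restricted expression stayed low. Cox8b, a form of heart and skeletal muscle, was listed at 0 in every NC library, stood at 0.113, 1.23 and 0.238 FPKM in si-NC and reached 0.433, 1.91 and 3.28 in si-CIRBP, and it was not called. Cox7b2, a form known from testis, was at 0.166 to 0.435 FPKM in NC and at 0.451, 2.53 and 1.90 in si-NC (log2 fold change 0.97, adjusted p = 0.0226), and it was not called once library 2 or 3 of either group was left out (adjusted p up to 0.0824). Cox7a1, the muscle form, was under 0.5 FPKM in every library. Cox4i2 and Ndufa4l2, which are known to be induced at low oxygen, were at most 1.03 and 0.330 FPKM in any library after OGD/R.

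Complex V had 12 of its 17 members called higher in si-CIRBP and none lower, where 9.08% of all genes were called higher and 20.5% lower. In CIRBP 4 were higher, 2 lower and 11 not called, against 19.7% and 34.2% of all genes. Scaling to one median gave 9 higher and 1 lower in CIRBP and 13 and none in si-CIRBP. That scaling called 28.7% of all genes higher and 26.4% lower in CIRBP and 17% and 13.3% in si-CIRBP. A fit of the si arm alone called 5 of the 12, and one with a variance factor per group 2. The shares of all genes called in these fits are not given here. Atp5mg, a membrane subunit at the dimer interface, rose in both arms. It went from 254, 254 and 273 FPKM to 379, 351 and 356 (log2 fold change 0.47, SE 0.06, adjusted p = 5.26e-05) and from 229, 229 and 236 to 330, 302 and 293 (0.41, adjusted p = 0.000561). RefSeq lists 8 pseudogenes under its name, more than for any other member. Atp5pd and Atp5pf, of the peripheral stalk, rose in both arms by 0.29 to 0.36.

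Atp5if1, the inhibitor that keeps the ATP synthase from running backwards and consuming ATP when respiration fails, had the largest rise among called nuclear members in CIRBP. It was at 119, 121 and 131 FPKM in NC and at 190, 199 and 203 in CIRBP (log2 fold change 0.67 with an SE of 0.07, adjusted p = 1.72e-05). It was at 134, 142 and 129 FPKM in si-NC and at 181, 152 and 163 in si-CIRBP (log2 fold change 0.29, adjusted p = 0.0106), a call not made in a fit of that arm alone. The difference between the arms, 0.38, was called (adjusted p = 0.0235). Of the catalytic subunits, Atp5f1b fell from 754, 772 and 801 FPKM to 664, 648 and 672 in CIRBP (log2 fold change -0.23, adjusted p = 0.0197), which was not called after scaling to one median or by median ratios, nor without NC library 2 or 3 or CIRBP library 1 or 2 (adjusted p up to 0.0714). Atp5f1a was not called in either arm (log2 fold changes 0.06 and 0.18).

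The proton-carrying c ring is built from 1 mature protein encoded by 3 genes, which moved differently. Atp5mc1 was at 135, 129 and 149 FPKM in NC and at 97.5, 87.6 and 96.8 in CIRBP (log2 fold change -0.55 with an SE of 0.11, adjusted p = 0.0016). It was at 165, 121 and 153 FPKM in si-NC and at 146, 166 and 169 in si-CIRBP (log2 fold change 0.14, adjusted p = 0.377). Atp5mc2 was not called in CIRBP (log2 fold change -0.02) and rose from 237, 222 and 236 to 253, 267 and 292 FPKM in si-CIRBP (0.22, adjusted p = 0.0171), a call lost without si-CIRBP library 3 (0.0602) and in a fit of that arm alone. Atp5mc3 was not called in CIRBP (-0.13) and rose from 205, 198 and 211 to 245, 261 and 253 FPKM in si-CIRBP (0.30, adjusted p = 0.00246), a call not made with a variance factor for each group. Of the 3 genes, Atp5mc1 was thus called in CIRBP and the other 2 in si-CIRBP. Atp5mf, a membrane subunit, had the largest rise among called members of the complex in si-CIRBP, from 146, 135 and 154 FPKM to 182, 228 and 243 (log2 fold change 0.57, adjusted p = 0.00282), and was not called in CIRBP (0.05).

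A test of the difference between the arms called 18 of 87 nuclear members, 2 with a difference (CIRBP arm minus si arm) above 0 and 16 with one below 0, and none of the 13 mitochondrial genes. Over all 14257 genes tested, 17.8% were called, 980 with a difference above 0 and 1555 with one below 0. Of the 16, Uqcrh (-0.87), Atp5mc1 (-0.68), Cox7a2l2 (-0.53), Atp5mf (-0.53) and Atp5me (-0.52) lay lowest. The count was 5 without CIRBP library 2 and 23 without si-CIRBP library 1, the extremes over the 12 libraries left out in turn. Both arms have their own controls, but those controls differed: between si-NC and NC, 3 nuclear members were called higher and 15 lower, against 12.5% and 21.9% of all genes, and none of the mitochondrial genes. After scaling to one median these were 6 and 9, against 15.1% and 17.5%. Without si-NC library 1 they were 10 and 20, and without NC library 3 they were 1 and 3. Every value of si-NC and NC enters the arms too, so this comparison shares its libraries with them.

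Among members called between the controls, Uqcrc1 was at 165, 167 and 176 FPKM in NC and at 156, 110 and 143 in si-NC (log2 fold change -0.33, adjusted p = 0.0294). Ndufaf6 went from 15.7, 16.8 and 16.2 FPKM to 12.8, 7.14 and 11.3 (log2 fold change -0.63, adjusted p = 0.0105). In both, si-NC library 2 was the lowest of its group, and the call of Uqcrc1 was lost without any NC library (adjusted p up to 0.0924). Atp5f1a, Atp5mg, Ndufa2 and Ndufc1 were lower by 0.17 to 0.33 on the log2 scale, and Ndufa11 was higher by 0.30 (adjusted p = 0.0249). Each of these 5 calls was lost without at least 1 NC library, NC library 3 in every case, with adjusted p-values up to 0.0591 for Ndufc1 and 0.149 for Atp5mg.

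**Figure D4:**
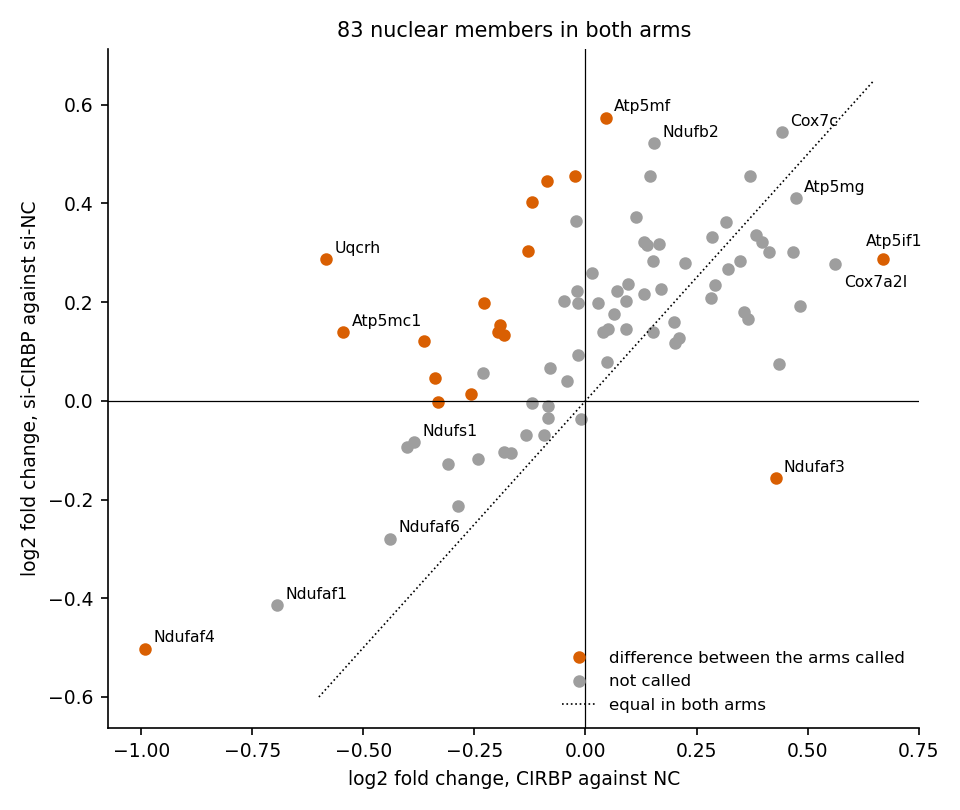
Log2 fold changes of FPKM + 1 of 83 nuclear members in CIRBP against NC (x axis) and si-CIRBP against si-NC (y axis); the other 4 of the 87 tested, Ndufa1, Cox6a2, Atp5pb and Cox8b, lie outside the axes. Orange points are members whose difference between the arms was called, most of them above the dotted line of equal change. Ndufaf4 lies at -0.99 and -0.50, Atp5mg at 0.47 and 0.41, and Uqcrh at -0.58 and 0.29.

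A few rows behaved unlike the rest of their complex. Atp5pb, a peripheral stalk subunit, was at 0.377 to 0.840 FPKM in 9 libraries and at 4.33, 4.87 and 19.2 in CIRBP library 1 and si-CIRBP libraries 1 and 2. Ndufa1 was at 0.791, 110 and 50.2 FPKM in the 3 CIRBP libraries and at 54.1, 1.27 and 49.8 in the 3 si-CIRBP libraries. Ndufs6 was under 0.5 FPKM in every library. These genes encode parts of the enzyme that every respiring cell makes, so low or uneven values here are given as listed and carry no statement on expression.

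The promoters of the nuclear members were examined because the members are known targets of the factors NRF1 and GABPA, of which GABPA binds an ETS motif. RefSeq windows of 300 bases around the start, on build GRCr8, were matched for 80 of the 91 nuclear members. The NRF1 letters GCGCATGCG, on either strand, were in 8 of 80 windows (10%) and in 1.66% of 27457 windows of all genes. The ETS letters CCGGAAG, on either strand, were in 22 of 80 (27.5%) and in 9.22% of all. The median GC content was 56% in the members and 52.3% in all windows, and the letters are rich in G and C. At least 1 of the motifs was in 28 of the 80 windows and in 2882 of the 27457 windows of all genes. Of the matched members called higher in CIRBP, 7 of 22 held at least 1 of the motifs, of those called lower 8 of 17 and of those not called 13 of 38. In si-CIRBP these were 10 of 33 called higher, the 1 called lower and 17 of 43 not called. By complex, the NRF1 letters were in 4 of 16 windows of complex V, 2 of 7 of complex I assembly factors, 1 of 32 of complex I, 1 of 6 of complex III and none of 15 of complex IV.

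The 250 bases before the start of 4 members are shown because these members carry the main patterns: Ndufaf4 fell in both arms, Atp5mg and Cox7c rose in both, and Uqcrh differed most between them. Capitals mark the NRF1 letters GCGCATGCG and the ETS letters CCGGAAG, or their reverse complements, and each sequence reads 5′ to 3′ on the strand of the gene.
Ndufaf4 (chr5:43401545-43401794, plus strand): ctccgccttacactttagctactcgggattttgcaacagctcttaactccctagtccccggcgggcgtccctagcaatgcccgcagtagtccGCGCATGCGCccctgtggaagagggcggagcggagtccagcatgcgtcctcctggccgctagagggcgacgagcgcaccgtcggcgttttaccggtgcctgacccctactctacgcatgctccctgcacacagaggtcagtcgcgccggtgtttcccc
Atp5mg (chr8:54130408-54130657, minus strand): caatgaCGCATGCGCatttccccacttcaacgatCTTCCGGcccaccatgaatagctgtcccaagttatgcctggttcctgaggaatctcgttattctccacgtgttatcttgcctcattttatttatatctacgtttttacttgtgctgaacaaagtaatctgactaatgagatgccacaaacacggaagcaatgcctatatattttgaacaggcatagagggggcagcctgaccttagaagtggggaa
Uqcrh (chr5:134790883-134791132, minus strand): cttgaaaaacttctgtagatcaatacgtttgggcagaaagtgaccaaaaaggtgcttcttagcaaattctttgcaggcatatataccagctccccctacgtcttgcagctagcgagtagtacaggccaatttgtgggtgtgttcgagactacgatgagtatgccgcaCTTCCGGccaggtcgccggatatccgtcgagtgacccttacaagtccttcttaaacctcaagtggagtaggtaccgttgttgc
Cox7c (chr2:18579171-18579420, minus strand): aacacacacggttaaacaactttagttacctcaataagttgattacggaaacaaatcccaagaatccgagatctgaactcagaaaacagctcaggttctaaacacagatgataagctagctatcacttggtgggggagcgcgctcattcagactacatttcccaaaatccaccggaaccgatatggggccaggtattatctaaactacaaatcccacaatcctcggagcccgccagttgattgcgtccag
Ndufaf4 holds the NRF1 letters on both strands at 1 place, where they overlap. Atp5mg holds 1 NRF1 and 1 ETS match far from the start, Uqcrh 1 ETS match, and Cox7c neither, which says only that these letters are not in this window. Members that rose in both arms, such as Atp5mg and Cox7c, thus differ in these letters.

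Most nuclear genes that transcribe and process mitochondrial RNA fell in CIRBP. Of 29 tested genes of this list, 23 fell, none rose and 6 were not called, with a median log2 fold change of -0.43. The count of falls was 19 to 24 when libraries were left out in turn, and 34.2% of all genes fell. After scaling to one median 19 fell and 2 rose, against 26.4% and 28.7% of all genes. Polrmt, the mitochondrial RNA polymerase, went from 9.55, 9.57 and 10.04 FPKM to 5.71, 5.70 and 5.82 (log2 fold change -0.67, SE 0.06, adjusted p = 4.05e-06). Tefm, its elongation factor, went from 8.62, 8.06 and 8.37 to 2.93, 3.31 and 3.38 (log2 fold change -1.15, adjusted p = 7.27e-06). Pnpt1, the polynucleotide phosphorylase of the RNA-degrading complex, went from 27.9, 28.5 and 28.8 to 13.8, 13.8 and 12.98 (log2 fold change -1.02, adjusted p = 2.04e-07). Tbrg4, a member of the FASTK family of mitochondrial RNA-binding proteins, fell by 0.73 (adjusted p = 5.23e-06). Genes that make mitochondrial RNA and a gene that degrades it thus both fell.

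In si-CIRBP, 20.5% of all genes fell and 9.08% rose. Of the same 29 genes, 14 fell, 1 rose (Hsd17b10, a subunit of mitochondrial RNase P) and 14 were not called. After scaling to one median 8 fell and 2 rose, against 13.3% and 17% of all genes. A fit of this arm alone called 2 lower, and the share of all genes called in that fit is not given here. Pnpt1 was at 26.6, 23.9 and 25.9 FPKM in si-NC and at 14.7, 14.4 and 13.7 in si-CIRBP (log2 fold change -0.79, adjusted p = 6.54e-06). Tefm, Polrmt and Mtpap, the mitochondrial poly(A) polymerase, had log2 fold changes of -0.76, -0.33 and -0.48. The mitochondrial transcripts had a median log2 fold change of 0.01 in that arm, against 0.45 in CIRBP.

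**Figure D5:**
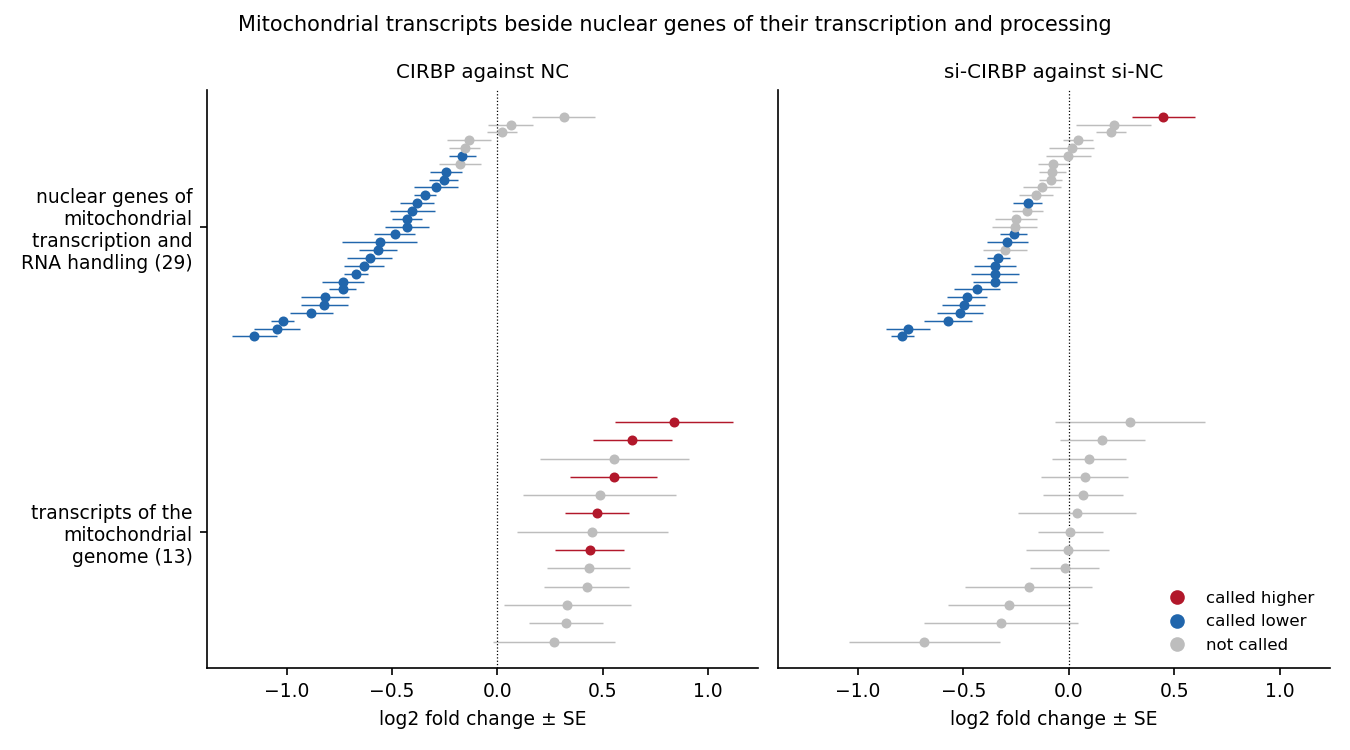
Log2 fold changes ± SE of the 13 mitochondrial transcripts (lower band) and of 29 nuclear genes of mitochondrial transcription and RNA handling (upper band), in CIRBP against NC (left) and si-CIRBP against si-NC (right). In CIRBP 23 of the 29 are called lower and 5 of the 13 higher; in si-CIRBP 14 of the 29 are called lower and none of the 13 is called.

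Regulators of mitochondrial biogenesis fell or were not called. Of 12 tested, 7 fell in CIRBP and 4 in si-CIRBP, and none rose in either, where 34.2% and 20.5% of all genes fell. Myc, a transcription factor that drives many growth genes, went from 31.9, 30.7 and 32.1 FPKM to 11.9, 12.7 and 11.4 in CIRBP (log2 fold change -1.33, adjusted p = 6.48e-07) and from 29.1, 25.4 and 24.6 to 10.2, 8.43 and 8.27 in si-CIRBP (-1.46, adjusted p = 2.01e-06). Hif1a, the oxygen-regulated transcription factor subunit, Yy1, and the coactivator Pprc1 fell in both arms, with log2 fold changes of -0.94 to -0.73 in CIRBP and of -0.80 to -0.40 in si-CIRBP. Nrf1 and Gabpa, whose motifs were counted above, were not called in either arm.

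Of 41 tested assembly factors outside the Ndufaf genes, 15 were called lower in CIRBP, 7 higher and 19 neither, against 34.2% of all genes called lower and 19.7% higher. Scaling to one median turned these to 10 lower and 15 higher, against 26.4% and 28.7% of all genes. Lyrm7, which brings the Rieske protein to complex III, went from 7.15, 6.99 and 7.49 FPKM to 3.46, 3.48 and 3.32 (log2 fold change -0.89, adjusted p = 1.57e-05), while the Rieske gene Uqcrfs1 rose. Timmdc1, a complex I assembly factor, fell by 0.56 on the log2 scale. Higd2a, which promotes supercomplexes, went from 28.0, 25.5 and 27.8 to 48.6, 45.5 and 48.6 (log2 fold change 0.79, adjusted p = 3.65e-05), and Dmac1, of complex I assembly, rose by 0.49. In si-CIRBP 5 rose and 6 fell, where 9.08% of all genes rose and 20.5% fell. Cox14, of complex IV assembly, went from 125, 96.0 and 142 FPKM in si-NC to 181, 171 and 186 in si-CIRBP (log2 fold change 0.58, adjusted p = 0.00391). Higd1a, a hypoxia-inducible partner of complex IV, was at 48.8, 37.5 and 41.8 FPKM in si-NC and at 310.2, 83.6 and 76.6 in si-CIRBP, (log2 fold change 1.55, SE 0.42, adjusted p = 0.0179). Its highest value came from si-CIRBP library 1, the library with the lowest mitochondrial share, and whether the call held without that library is not given here.

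Of the 14 electron carriers, exchangers and Cyc1, 7 rose and 4 fell in CIRBP and 5 rose and none fell in si-CIRBP. Of all genes, 19.7% rose and 34.2% fell in CIRBP, and 9.08% rose and 20.5% fell in si-CIRBP. Slc25a3, which carries the phosphate used by complex V, rose by 0.32 in CIRBP and 0.35 in si-CIRBP, and Slc25a5, an ADP/ATP exchanger, by 0.32 and 0.30. Cycs, cytochrome c, went from 59.9, 60.3 and 61.5 FPKM to 68.9, 68.5 and 67.4 in CIRBP and from 75.8, 84.6 and 86.4 to 99.0, 93.4 and 90.6 in si-CIRBP, and was called in both. Of the 16 genes of the tricarboxylic acid cycle, 3 rose and 4 fell in CIRBP, and 1 rose and 1 fell in si-CIRBP, to be read against the same shares of all genes. After scaling to one median 8 were higher and 2 lower in CIRBP and 9 and 0 in si-CIRBP. That scaling called 28.7% of all genes higher and 26.4% lower in CIRBP and 17% and 13.3% in si-CIRBP. The directions of this list thus rest on the scaling. Idh2, the NADP-dependent mitochondrial isocitrate dehydrogenase, rose in both, from 52.5, 51.5 and 53.9 FPKM to 90.3, 89.4 and 93.7 in CIRBP (log2 fold change 0.78, adjusted p = 2.17e-05), and Dlst fell in both, by 0.29 and 0.23 on the log2 scale.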

How the data were processed

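Poly-A RNA of 12 libraries was sequenced. The authors deposited 1 table whose values are FPKM, per the file headers, and only these were used. The submitters' processing notes name Bowtie2 2.3.3.1, Cufflinks 2.2.1 and mouse genome builds, without their roles, while the identifiers are of rat genes, and the sources used here do not say how reads were aligned and counted. FPKM are shares of a library, so that a rise of abundant transcripts lowers all others, and they hold no absolute depth.

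Values were tested with limma 3.58.1 in R 4.3.3 (trend on, two-sided) on log2(FPKM + 1) over all 12 libraries with 1 coefficient per group. The 14257 genes reaching 1 FPKM in at least 3 libraries were included, with Benjamini-Hochberg adjustment over all of them. A fold change on this scale understates the change of low genes. The script was tested on simulated data with known changes. Genes are named by rule: all mitochondrial genes, the Sdh genes, isoforms, and for each complex and comparison the 2 largest called rises and falls without overlap. Members described as uneven and further genes with values were picked with their values in view. The alternatives were other scalings, pseudocounts, filters, error models, a replicate block and each library left out. The members and lists were chosen with earlier results of these data known. Promoters and pseudogenes were matched by symbol to RefSeq tables of build GRCr8. The values of 1 member are not reported here.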

Additional observations from a re-analysis of the deposited data

Results flagged for a closer look

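The change in CIRBP against NC was compared with the change in si-CIRBP against si-NC by a limma test of their difference. At an adjusted p under 0.05, 18 of 87 nuclear members passed, where 17.8% of all genes did. Of the 14257 genes tested, 980 passed with a positive and 1555 with a negative difference. The difference of log2 fold changes, the first arm minus the second, was positive for the inhibitor Atp5if1 (0.38) and the assembly factor Ndufaf3 (0.58). It was negative in complex I and its assembly factors for Ndufa7 (-0.32), Ndufa9 (-0.38), Ndufab1 (-0.33), Ndufb8 (-0.34), Ndufc1 (-0.43), Ndufs3 (-0.27), Ndufaf4 (-0.49) and Ndufaf8 (-0.48). In complexes II, III and IV it was negative for Sdhc (-0.34), Uqcr10 (-0.48), Uqcrh (-0.87) and Cox7a2l2 (-0.53). In complex V it was negative for Atp5mc1 (-0.68), Atp5mc3 (-0.43), Atp5me (-0.52) and Atp5mf (-0.53). The groups si-NC and NC differ as well, and treatment, culture and control cannot be told apart in these differences.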

How the results depend on the processing

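Of 120 gene results in the 3 group comparisons, 59 were called. Without each library in turn 36 of these calls held, 19 of 29 in CIRBP against NC, 14 of 16 in si-CIRBP against si-NC and 3 of 14 in si-NC against NC, and 26 held in all 20 alternatives. The log2 fold change of Sdha in CIRBP turned to 0.14 after scaling to one median, and no other of these results reversed. The causes of the changes below were not tested. The number called over all genes also changed with the scaling and with the library left out.

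In CIRBP against NC, 24 nuclear members were called higher and 19 lower. These became 43 and 9 after scaling to one median and 39 and 11 by median ratios. The 5 mitochondrial genes called higher became 8 after scaling to one median, 3 with mitochondrial rows left out of the library sum, 2 with no filter, and 12 both with only the groups compared and with a variance factor per group. In si-CIRBP against si-NC, the 37 called higher became 10 with only the groups compared and 8 with a variance factor, and the 1 called lower became 4 with mitochondrial rows left out of the sum and 0 with only the groups compared. In si-NC against NC, the 3 called higher became 6 after scaling to one median or by median ratios, 1 with only the groups compared and 5 with a variance factor. The 15 called lower became 9 after either scaling, 24 with mitochondrial rows left out and 8 with only the groups compared, and the mitochondrial count went from 0 to 2 with a variance factor.

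With libraries left out in turn, the counts higher and lower were 20 to 27 and 12 to 20 in CIRBP against NC, 27 to 41 and 1 to 6 in si-CIRBP against si-NC, and 1 to 10 and 3 to 20 in si-NC against NC. The mitochondrial counts called higher were 1 to 7, 0 to 1 and 0 to 3. The difference between the arms was called for 5 to 23 nuclear and 0 to 1 mitochondrial members. With the sum taken over rows with a gene symbol, the nuclear share was 2.32% in NC, 2.297% in CIRBP, 2.16% in si-NC and 2.38% in si-CIRBP, and the mitochondrial share 6.48% in NC and 8.71% in CIRBP.

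The replicate block gave 22 higher and 17 lower in CIRBP against NC and 34 and 1 in si-CIRBP against si-NC, and it ended 4 calls, of Cox6b1 and Ndufaf7 in CIRBP against NC and of Atp5mg and Sdhd in si-NC against NC. Correlations of same-numbered libraries were 0.097, 0.048 and 0.1 in CIRBP and NC, where each correlated best with its own number, 0.014, -0.09 and 0.041 in si-CIRBP and si-NC and 0.007, -0.033 and -0.034 in si-NC and NC. Not every value was over 0.1, so the numbers were not taken to pair the libraries, and whether same-numbered libraries share an origin was not settled. FPKM give no read counts, so how depth limits the lowest values is unknown.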
